A study of Mus musculus with 18 samples.

Results

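Resting wild-type (WT) basophils were described from 3 of the 18 arrays of the series, those labelled as unstimulated WT replicates 1, 2 and 3, and their genes were ordered by mean level within these arrays. The cells came from bone marrow of the strain C57BL/6J at an age of 4 to 6 weeks, carried no altered allele by their labels and had received no stimulus. The other 15 arrays hold WT cells given IgE activation or IL-33 for 4 h, and cells that lack ST2, the IL-33 receptor, in the same 3 states. They served only to set a common scale and are not compared here. Total RNA was hybridised to an Illumina bead array of 45281 probes. Culture-derived cells are a model of the blood and tissue basophil, and the cytokines used for growth and any purification are not given in the sources used here. Nothing in the labels says whether the replicates came from separate mice or cultures, so their spread may be technical.

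Basophils are rare granulocytes related to mast cells, which develop in response to IL-3. They bind IgE through the high-affinity receptor FceRI, built from an alpha chain that holds IgE, a beta chain that amplifies the signal and a gamma chain shared with other Fc receptors. Cross-linking of this receptor releases stored histamine and proteases and starts the synthesis of leukotrienes and of cytokines such as IL-4.

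The median probe signal was 104, 97.1 and 96.5 on arrays 1, 2 and 3, and 15724, 15073 and 14946 probes had a detection p-value under 0.05. In Illumina's scheme the detection p-value compares a probe with the array's negative controls. Levels below are log2 intensities after background correction and quantile normalization, and means are given ± SD over the 3 arrays (n = 3). Across the 7896 genes detected on all 3 arrays, Pearson's r was 0.979 between arrays 1 and 2, 0.982 between arrays 2 and 3, and 0.988 between arrays 1 and 3. Genes are not independent replicates, so these values only describe the arrays. Array 2 stood apart in the interferon response genes and in some others, such as Ccl7, Tnf and Arg1, as described below. The mean levels of all such genes average unlike arrays. The number of arrays limits the precision of every value.

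A gene was called detected when its brightest probe had a detection p-value under 0.05 on all 3 arrays, and undetected when none of its probes had one on any array. Of 19057 genes with a named probe, 7896 (41.4%) were detected and 9339 (49.0%) were undetected, with 1822 between. Every share of a gene list below is to be read beside this 41.4% of all genes. Detected genes had mean levels from 4.84 to 14.66, with a median of 7.60. Undetected genes lay between 4.22 and 4.78, a narrow band at the bottom of the scale. The median SD of a detected gene was 0.18. A rank orders probe signals, which depend on how well each probe hybridises as well as on the transcript, so neighbouring ranks of different genes are not an order of transcript amounts. For the same reason undetected means a probe not above background. Sdha, a subunit of succinate dehydrogenase, was undetected although Sdhb, Sdhc and Sdhd, which encode its other subunits, were all detected. In RNA from a whole culture, fewer cells of a type and less RNA per cell cannot be told apart.

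**Figure D1:**
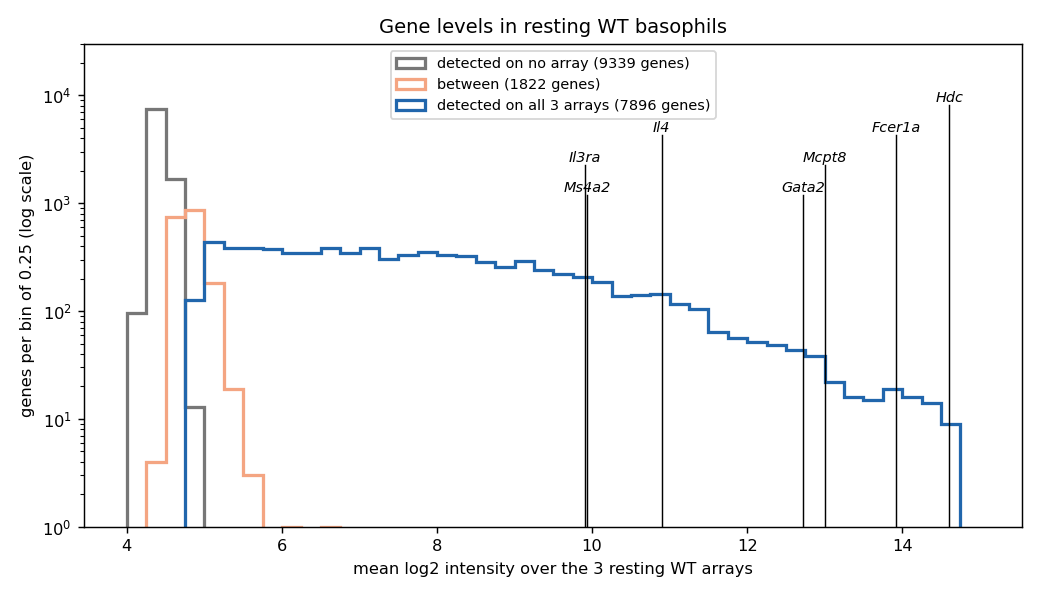
Number of genes (log scale) per bin of mean log2 intensity over the 3 resting WT arrays, drawn for genes detected on all 3, on none, and between. Undetected genes form a peak between 4.22 and 4.78, detected genes spread up to 14.66, and vertical lines mark 7 basophil genes from Ms4a2 and Il3ra at 9.93 and 9.90 to Hdc at 14.60.

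The top of the ranking joined the protein synthesis machinery, which any growing cell expresses, with products known from basophils. Of the 30 genes with the highest mean, 14 encode ribosomal proteins, a pattern picked out after the values were seen. Of 61 measured genes with a symbol of the ribosomal protein form, 53 were detected, 8 were undetected and 35 ranked among the first 100. The set was taken by the form of the symbol alone, so it may hold paralogs and miss some members. The first gene was Itm2b, which encodes a widely expressed membrane protein, at 14.70, 14.70 and 14.57, mean 14.66 ± 0.08. Of its 4 probes, 2 were detected on all 3 arrays. The 3 arrays did not separate the leading genes, since the array ranges of 11 other genes, down to rank 23, overlapped that of Itm2b. The 30th gene, Fxyd5, had a mean of 14.15 ± 0.07. Whether the brightest probes were saturated was not tested.

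Basophil products held several of the remaining places among the first 30. Hdc, histidine decarboxylase, which makes histamine, ranked 2 with signals of 27194, 22438 and 25270, against a median probe signal of 104, 97.1 and 96.5, and levels of 14.66, 14.56 and 14.60, mean 14.60 ± 0.05. Alox5ap, the protein that presents arachidonic acid to 5-lipoxygenase, ranked 10 at 14.43, 14.51 and 14.54, mean 14.49 ± 0.06. Prss34, a tryptase-like serine protease known from mouse basophils, ranked 12, Cpa3, the granule carboxypeptidase shared with mast cells, ranked 17, and Fcer1g, the gamma chain of FceRI, ranked 29. The first 30 also held Ifitm1, an interferon-inducible membrane protein, at 14.51 ± 0.03. Ccl9, a chemokine, had a mean of 14.34 ± 0.19. Slpi, a secreted inhibitor of serine proteases, was at 14.32 ± 0.02, and Cfp, properdin of the alternative complement pathway, at 14.16 ± 0.13. Both ferritin chains, Fth1 at 14.54 ± 0.06 and Ftl1 at 14.17 ± 0.03, stand in the same range, as does Laptm5, a lysosomal membrane protein of blood cells, at 14.42 ± 0.04. The name Ubb-ps is that of a pseudogene near-identical to the ubiquitin gene Ubb, and its probe may not tell them apart.

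A list of 14 basophil genes was set beside the label. Of these, 13 were detected (92.9%, beside 41.4% of all genes) and none was undetected. Their median level was 12.90, beside a median of 4.67 over all 19057 genes. The list was chosen with earlier results of these data known, so the share detected is no independent check of the label. The alpha chain of FceRI, Fcer1a, read 14.01, 13.85 and 13.90 on arrays 1, 2 and 3, mean 13.92 ± 0.08. Mcpt8, the granule protease that marks mouse basophils, read 12.78, 13.45 and 12.76, mean 12.998 ± 0.39. Array 2 was the high one for Mcpt8, while the arrays lay close together for Fcer1a. Gata2, the transcription factor that basophils and mast cells need, read 12.78, 12.66 and 12.73, mean 12.72 ± 0.06. Ms4a2, the beta chain of FceRI, read 10.001, 10.17 and 9.63, mean 9.93 ± 0.28. All 4 genes were above background on every array, and Ms4a2 ranked 1275 where the other chains, Fcer1g and Fcer1a, ranked 29 and 46. Cd200r3, an activating receptor of basophils and mast cells, was at 12.81 ± 0.19, and Il4, the signature cytokine, at 10.83, 11.03 and 10.83, mean 10.90 ± 0.12. The exception was Itga2, the CD49b chain used to sort basophils, which was above background on array 1 alone.

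Promoters of 7 of these genes are printed because they are the markers and granule genes that head the description, and because they differ in composition. Each is the 250 bases before the gene start, 5' to 3' on the gene's strand, from RefSeq on GRCm38.p6. In the first 6, capitals mark a GATA motif, searched on both strands as the letters GATA with A or T before them and A or G after them. Mcpt8 holds no such motif and is printed without capitals. In Gata2, which holds none either, capitals mark CG pairs. The windows are chr2:126618679-126618928 on the minus strand for Hdc, chr17:25298144-25298393 on the plus strand for Prss34, chr3:20242182-20242431 on the minus strand for Cpa3, chr14:56085198-56085447 on the minus strand for Mcpt8, chr1:173227230-173227479 on the minus strand for Fcer1a, chr19:11623720-11623969 on the minus strand for Ms4a2 and chr6:88193641-88193890 on the plus strand for Gata2.
Hdc: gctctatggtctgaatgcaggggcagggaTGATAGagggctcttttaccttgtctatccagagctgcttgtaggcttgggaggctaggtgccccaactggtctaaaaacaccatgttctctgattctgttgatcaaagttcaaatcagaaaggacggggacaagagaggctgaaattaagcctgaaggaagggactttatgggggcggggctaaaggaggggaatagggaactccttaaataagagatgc
Prss34: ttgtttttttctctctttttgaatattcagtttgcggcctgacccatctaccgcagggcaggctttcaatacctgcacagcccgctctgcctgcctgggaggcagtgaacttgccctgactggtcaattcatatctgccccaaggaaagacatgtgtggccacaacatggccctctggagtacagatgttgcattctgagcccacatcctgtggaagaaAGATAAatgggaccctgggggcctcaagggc
Cpa3: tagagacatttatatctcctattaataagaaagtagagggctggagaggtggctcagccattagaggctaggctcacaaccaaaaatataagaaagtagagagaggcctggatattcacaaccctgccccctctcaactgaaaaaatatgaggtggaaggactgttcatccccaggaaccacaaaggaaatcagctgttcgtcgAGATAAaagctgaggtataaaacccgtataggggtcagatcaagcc
Mcpt8: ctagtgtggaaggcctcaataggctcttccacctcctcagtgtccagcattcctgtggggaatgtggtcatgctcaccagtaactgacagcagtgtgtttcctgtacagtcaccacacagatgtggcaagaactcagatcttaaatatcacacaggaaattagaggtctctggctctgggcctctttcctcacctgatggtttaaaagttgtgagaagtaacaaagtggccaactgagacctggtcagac
Fcer1a: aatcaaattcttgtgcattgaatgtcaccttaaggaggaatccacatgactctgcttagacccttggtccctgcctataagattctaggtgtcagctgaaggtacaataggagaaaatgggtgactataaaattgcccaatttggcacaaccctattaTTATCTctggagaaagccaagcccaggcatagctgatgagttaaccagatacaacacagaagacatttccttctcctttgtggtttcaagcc
Ms4a2: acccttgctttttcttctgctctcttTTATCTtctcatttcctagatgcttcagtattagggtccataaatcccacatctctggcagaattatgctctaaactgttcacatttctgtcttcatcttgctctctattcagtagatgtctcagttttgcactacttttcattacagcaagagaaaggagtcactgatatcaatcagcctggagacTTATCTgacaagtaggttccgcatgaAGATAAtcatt
Gata2: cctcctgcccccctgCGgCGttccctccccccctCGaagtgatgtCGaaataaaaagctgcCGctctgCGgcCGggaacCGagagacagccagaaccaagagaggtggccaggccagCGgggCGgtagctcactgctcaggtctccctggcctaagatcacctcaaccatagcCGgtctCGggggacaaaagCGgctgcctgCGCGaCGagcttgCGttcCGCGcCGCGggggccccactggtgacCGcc

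The window of Ms4a2 held 3 GATA motifs and those of Hdc, Prss34, Cpa3 and Fcer1a held 1 each. The motif ended 5 bases before the start in Ms4a2, 25 in Prss34, 40 in Cpa3, 86 in Fcer1a and 215 in Hdc, counting the nearest motif. The windows of these 5 genes and Mcpt8 had at most 3 CG pairs, and that of Gata2 had 22. TATAAA, searched on both strands, occurred 2 times in the Cpa3 window and 1 time in that of Fcer1a. Of all 32851 promoter windows in the table, 26.5% held a GATA motif and 12.4% held TATAAA. A match is a description of the letters and says nothing of binding.

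Granule proteases are stored in the secretory granules and released on degranulation, and lysosomal cathepsins process proteins inside the cell. Of the 30 measured, 16 were detected (53.3%, beside 41.4% of all genes), 10 were undetected, and the median level was 7.50. Prss34 read 14.52, 14.59 and 14.34, mean 14.48 ± 0.13, and Cpa3 read 14.28, 14.43 and 14.41, mean 14.37 ± 0.08. The arrays lay close together for both. Tpsb2, a tryptase named for mast cells, read 13.52, 13.93 and 13.66, mean 13.70 ± 0.21, on 1 of its 2 probes. Cathepsin B, Ctsb, had a mean of 13.001 ± 0.10, on 1 of 2 probes, and cathepsin E, Ctse, an aspartic protease, one of 12.32 ± 0.17. The undetected members were the mast cell proteases Mcpt1, Mcpt2, Mcpt4 and Mcpt9, the granzymes Gzmb, Gzmc and Gzmk, and Cma2, Ctsl and Ctsw. The neutrophil proteases Elane and Prtn3 were in between.

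Among granule matrix and cationic proteins, 13 of 19 were detected (68.4%), with a median level of 8.83. Cd63, a granule membrane protein that appears on the surface of degranulating basophils, read 14.13, 14.02 and 14.06, mean 14.07 ± 0.06. Srgn, serglycin, the proteoglycan core on which proteases and histamine are packed, read 13.59, 13.72 and 13.52, mean 13.61 ± 0.10. Both were steady over the arrays. Lyz1, a lysozyme, read 12.62, 13.52 and 12.43, mean 12.85 ± 0.58, highest on array 2. The lysosomal membrane proteins Lamp2 and Lamp1 had means of 12.53 ± 0.14 and 11.78 ± 0.31. Epx and Prg3, cationic proteins of eosinophils, and Ear10 were undetected.

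Exocytosis needs SNARE proteins, which fuse vesicle and cell membranes, together with Rab proteins and their effectors. Of 32 genes of this machinery, 25 were detected (78.1%) and 6 were undetected, and the median level was 8.30. Stx11, a syntaxin of cytotoxic and myeloid cells, read 11.76, 11.82 and 11.83, mean 11.80 ± 0.03. Stxbp2, its Munc18 partner, read 11.26, 11.61 and 11.26, mean 11.37 ± 0.20. The SD of Stx11 was below the 0.18 that is the median of detected genes. Vti1b at 11.34 ± 0.08, Snap23 at 11.19 ± 0.18, Vamp8 at 10.66 ± 0.23 and Stx7 at 10.28 ± 0.03 are further SNARE proteins, of which Snap23 and Vamp8 are known from mast cell granule fusion. The neuronal members Snap25, Syt1 and Syt2 were undetected, as were Syt3, Sytl4 and Stxbp3.

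Of 24 measured genes for histamine, serotonin and lipid mediators, 13 were detected (54.2%), a share above but not far from the background of 41.4%, and 7 were undetected. The median level was 5.92. Beside Hdc and Alox5ap, the enzyme 5-lipoxygenase, Alox5, which starts leukotriene synthesis, read 11.26, 11.48 and 10.83, mean 11.19 ± 0.33. Tbxas1, thromboxane synthase, read 11.34, 10.56 and 11.25, mean 11.05 ± 0.43, lowest on array 2. Mgst3, a microsomal glutathione transferase, was at 10.18 ± 0.30, and Slc18a2, the vesicular transporter that loads histamine and serotonin into granules, read 9.75, 9.11 and 9.01, mean 9.29 ± 0.40. Ltc4s, an enzyme of cysteinyl leukotriene synthesis, was detected, as were Tph1 and Ddc, the enzymes of serotonin synthesis. Hnmt, which inactivates histamine, Lta4h, which makes leukotriene B4, Pla2g4a, the cytosolic phospholipase that frees arachidonic acid, and Ptgs2, the inducible cyclooxygenase, were undetected. Slc18a1, Ptgis and Hpgd were undetected too, and Ptgs1 is not analysed here because no probe was paired with it alone.

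**Figure D2:**
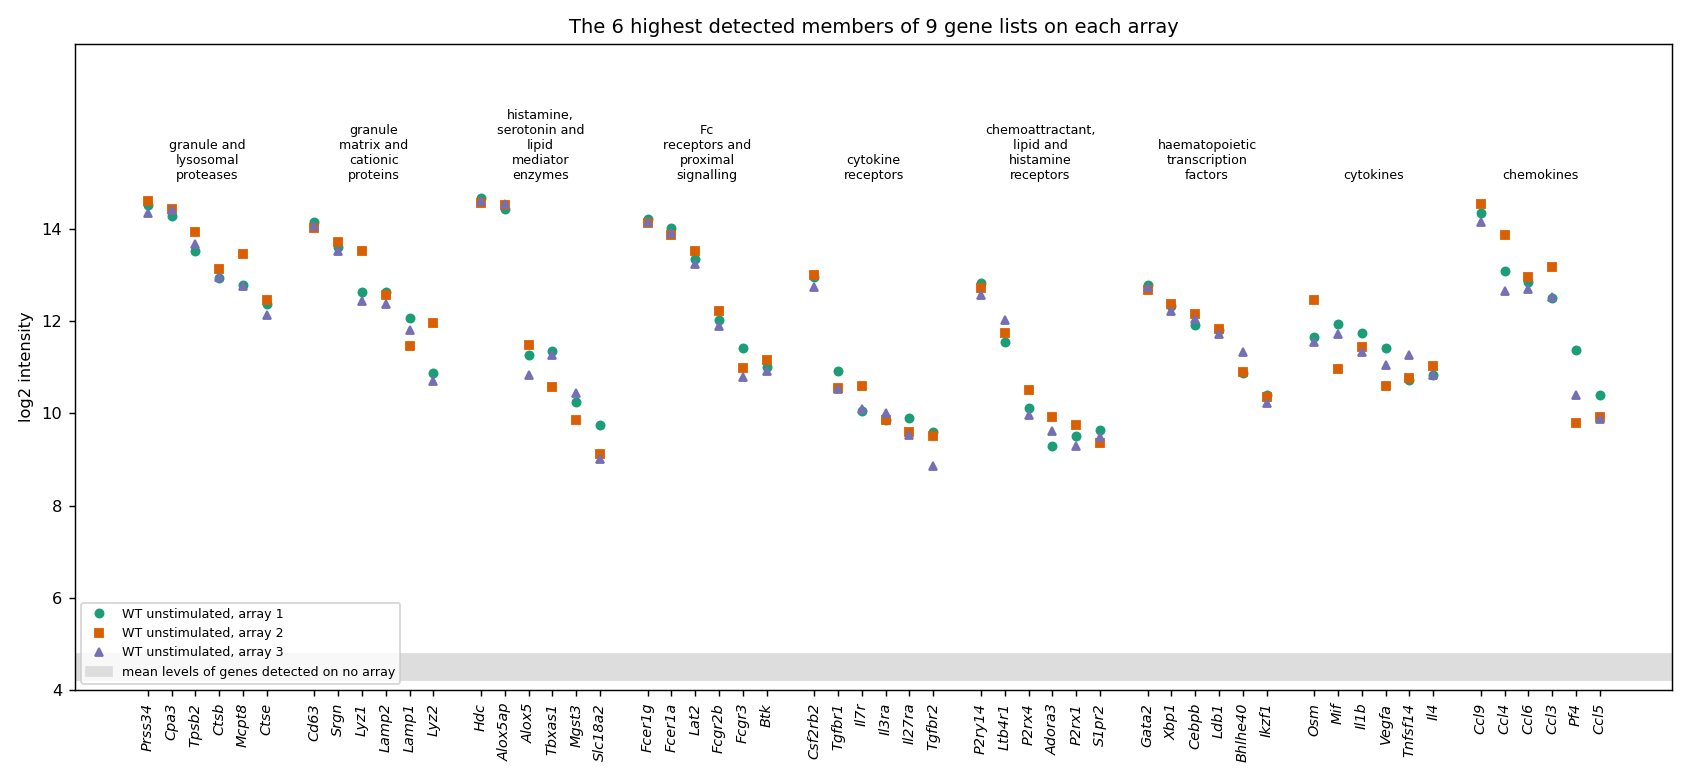
Levels on each of the 3 resting WT arrays (log2 intensity) for the 6 detected members with the highest mean in each of 9 gene lists; the grey band spans the mean levels of undetected genes, 4.22 to 4.78. Arrays lie close together for Hdc, Fcer1g and Gata2, and spread more for Pf4, Lyz1 and Ccl4.

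Fc receptors and their first signalling steps were detected in 19 of 25 measured genes (76%), with a median level of 8.45. Fcer1g read 14.20, 14.13 and 14.14, mean 14.16 ± 0.04. Lat2, an adaptor phosphorylated after FceRI cross-linking, read 13.34, 13.51 and 13.23, mean 13.36 ± 0.14. Neither separated the arrays widely. The IgG receptors were present in both kinds: the inhibitory Fcgr2b read 12.02, 12.21 and 11.90, mean 12.04 ± 0.16, and the activating Fcgr3 read 11.41, 10.97 and 10.78, mean 11.05 ± 0.33. Btk, a kinase downstream of the receptor, was at 11.03 ± 0.12. Syk, the kinase that binds the gamma chain, Lat, Lcp2, Plcg2 and the phosphatases Ptpn6 and Inpp5d were also detected. Plcg1, Cbl and Orai2 were undetected, and the kinase Lyn is not analysed here.

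Cytokine receptors were detected for 22 of 43 genes measured (51.2%, beside 41.4% of all genes), and 12 were undetected, with a median level of 5.03. Csf2rb2, the beta chain that mice use for the IL-3 receptor alone, read 12.95, 12.99 and 12.74, mean 12.90 ± 0.13. Il3ra, its alpha chain, read 9.86, 9.85 and 10.01, mean 9.90 ± 0.09, and Csf2rb, the beta chain shared by the IL-3, IL-5 and GM-CSF receptors, read 9.24, 9.07 and 9.24, mean 9.19 ± 0.10. All 3 chains were steady over the arrays. Csf2rb2 and Csf2rb are close paralogs, so their probes may not be fully separate. Tgfbr1 at 10.67 ± 0.22 and Tgfbr2 at 9.31 ± 0.41 encode the receptor for TGF-beta, Il7r at 10.25 ± 0.30 was above background on 1 of its 5 probes on all arrays, and Il27ra was at 9.67 ± 0.19. Both chains of the IL-18 receptor (Il18r1, Il18rap), both of the IFN-gamma receptor (Ifngr1, Ifngr2) and Crlf2, the receptor for TSLP, were detected. Kit, the stem cell factor receptor that marks mast cells, read 6.53, 6.08 and 6.08, mean 6.23 ± 0.26, on 1 of its 3 probes. Undetected were Il1r1, Il6ra, Il6st, Il13ra1, Il2rb, Il12rb2, Il1rl2, Lifr, Ifnar1, Tnfrsf1a, Flt3 and Epor. Il5ra was in between. Il1rl1, which encodes ST2, and Il2rg are not analysed here, because no probe was paired with either alone.

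Receptors for chemoattractants, lipids, nucleotides and histamine were detected for 19 of 45 genes measured (42.2%), near the background share, and 19 were undetected; the median level was 4.94. P2ry14, a receptor for UDP-glucose, read 12.82, 12.72 and 12.56, mean 12.70 ± 0.13. Ltb4r1, the high-affinity leukotriene B4 receptor, read 11.53, 11.75 and 12.03, mean 11.77 ± 0.25. Both had a range under 1 log2 unit over the arrays. The ATP-gated channels P2rx4 and P2rx1 were at 10.19 ± 0.28 and 9.52 ± 0.23, the adenosine receptor Adora3 at 9.61 ± 0.32, and S1pr2, a sphingosine-1-phosphate receptor, at 9.49 ± 0.14. Cxcr4, Ptger3, Hrh2 and Hrh4 were detected. Ccr3, the eotaxin receptor, and Ptgdr2, the prostaglandin D2 receptor also called CRTH2, were undetected, as were Ccr1, Ptgdr and both cysteinyl leukotriene receptors; in human, basophils are known to carry CCR3 and CRTH2.

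Pattern recognition receptors and their adaptors were detected for 20 of 31 genes measured (64.5%; median level 6.43). Myd88, the adaptor of Toll-like and IL-1 family receptors, read 11.23, 11.71 and 11.35, mean 11.43 ± 0.25. Clec4d, a C-type lectin, was at 10.31 ± 0.35, Ly96, the partner of Tlr4, at 9.86 ± 0.30, and Cd14, its coreceptor, read 8.61, 9.99 and 9.53, mean 9.38 ± 0.71. Cd14 was lowest on array 1. Tlr2 was at 9.29 ± 0.32, and Tlr1, Tlr4, Tlr6 and Tlr13 were detected. The Toll-like receptors Tlr3, Tlr5, Tlr7, Tlr8, Tlr9, Tlr11 and Tlr12 were undetected, as was Nlrp3.

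Inhibitory and paired receptors were detected for 18 of 26 genes measured (69.2%; median level 6.62). Cd200r3 read 12.74, 13.02 and 12.65, mean 12.81 ± 0.19. Lilrb4a, an inhibitory immunoglobulin-like receptor, was at 12.32 ± 0.16, and Cd47, the signal that restrains phagocytes, at 11.57 ± 0.17. Cd274, the checkpoint ligand PD-L1, read 11.63, 12.80 and 11.88, mean 12.10 ± 0.62, with array 2 the highest. Pilrb1 was at 11.40 ± 0.28 and Havcr2, the checkpoint receptor TIM-3, at 11.25 ± 0.15. The lectins Siglece, Siglecf and Siglecg, and Cd22, Clec12a, Clec4a2 and Cd5, were undetected.

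Integrins and adhesion molecules were detected for 16 of 28 genes measured (57.1%; median level 6.06). Itgb7, the beta-7 chain of gut-homing integrins, read 12.65, 12.87 and 12.64, mean 12.72 ± 0.13. Selplg, the ligand for P-selectin, read 12.28, 12.37 and 12.34, mean 12.33 ± 0.05. Itga2b, an integrin chain known from megakaryocytes, read 10.97, 10.84 and 10.85, mean 10.89 ± 0.07. The arrays differed little in these 3 genes. Pecam1 was at 10.79 ± 0.18, Cd44 at 10.12 ± 0.36 on 3 of its 9 probes, and Icam2 at 9.17 ± 0.10. Itga4, the usual partner of beta-7, and Itgam were in between, and Itga1, Itga3, Itga9, Itgax, Itgb6, Itgb8 and Vcam1 were undetected.

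Haematopoietic transcription factors were detected for 37 of 58 genes measured (63.8%; median level 6.46). Behind Gata2 stood Xbp1, a factor of secretory cells, at 12.31, 12.37 and 12.23, mean 12.30 ± 0.07, and Cebpb, at 11.91, 12.15 and 12.05, mean 12.04 ± 0.12. Ldb1, a cofactor that joins GATA and TAL1 complexes, read 11.80, 11.83 and 11.71, mean 11.78 ± 0.07. None of these separated one array from the rest by a wide margin. Bhlhe40 was at 11.03 ± 0.25 and Ikzf1 at 10.32 ± 0.10. Other factors of basophil development in mice, Cebpa, Runx1, Stat5a, Gata1 and Irf8, were detected. Mitf, the mast cell factor, was undetected, as were Gata3, Runx3, Stat5b, Bhlhe41, Hoxa9, Pax5 and Tbx21. Irf4, Myb and Erg were in between.

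Factors that act downstream of receptor signals were detected for 36 of 47 genes measured (76.6%; median level 7.59). Irf3, the factor activated by nucleic acid sensing, read 11.12, 11.43 and 11.42, mean 11.32 ± 0.18, and Irf1, which interferons induce, read 10.66, 11.80 and 10.91, mean 11.12 ± 0.60. Array 2 was the highest for Irf1. Atf4, of the integrated stress response, was at 11.08 ± 0.20, Ddit3, its target, at 10.66 ± 0.06, Fosl2 at 10.67 ± 0.17 on 1 of 3 probes, and Irf9 read 9.90, 10.87 and 10.35, mean 10.37 ± 0.49. The NF-kB subunits Rela, Relb, Rel and Nfkb2, the calcium-dependent Nfatc1 and Nfatc3, and Fos, Fosb, Jun, Junb and Jund were detected. Nr4a1, Nr4a2, Nr4a3, Myc, Mycn, Mycl, Maff and Batf3 were undetected.

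Cytokine genes were detected for 20 of 34 genes measured (58.8%; median level 5.67) without any stimulus. Osm, oncostatin M, read 11.65, 12.45 and 11.54, mean 11.88 ± 0.49, and Mif read 11.93, 10.96 and 11.71, mean 11.53 ± 0.51. Array 2 was the highest for Osm and the lowest for Mif. Il1b was at 11.50 ± 0.21, Vegfa at 11.01 ± 0.40 and Tnfsf14, the ligand LIGHT, at 10.92 ± 0.30. Il4 read 10.83, 11.03 and 10.83, mean 10.90 ± 0.12, ranking 700. Il13, its companion in type 2 responses, read 4.90, 5.87 and 5.27, mean 5.35 ± 0.49, and Il6 read 7.50, 8.48 and 7.88, mean 7.96 ± 0.50; both were highest on array 2. Il5 and Il3 were in between. Il2, Il9, Il10, Il12a, Il17a, Il25, Il33 and Tslp were undetected, as were Csf3, Ifng and Ifnb1.

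Chemokines were detected for 15 of 31 genes measured (48.4%; median level 5.16), near the 41.4% of all genes. Ccl9 read 14.33, 14.54 and 14.15, mean 14.34 ± 0.19, Ccl6 had a mean of 12.83 ± 0.13, and Ccl3 and Ccl4, chemokines that attract leukocytes, read 12.49, 13.18 and 12.53, mean 12.73 ± 0.39 and 13.09, 13.87 and 12.64, mean 13.20 ± 0.62. Array 2 was the highest for Ccl3, Ccl4 and Ccl9. Pf4, a platelet chemokine, read 11.37, 9.80 and 10.39, mean 10.52 ± 0.80, highest on array 1, and Ccl5 had a mean of 10.07 ± 0.30. Ccl1, Ccl11, Ccl20, Ccl22, Cxcl3, Cxcl9, Cxcl11 and Cxcl13 were among the 10 undetected.

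Enzymes of central metabolism were among the lists with the highest shares detected. Of 18 glycolysis genes 15 were detected (83.3%; median level 8.66), led by Aldoa, aldolase, at 12.85 ± 0.08, Gapdh at 12.78 ± 0.09 and Ldha, lactate dehydrogenase, at 12.40 ± 0.07. Pgam2 and Pklr, isozymes of muscle and of liver and red cells, were undetected. Of 25 tricarboxylic acid cycle genes 20 were detected (80%; median level 7.95), from Idh3g at 11.18 ± 0.10 and Suclg1 at 10.74 ± 0.06 down. Sucla2, Sdha, Pcx, Pck1 and Pck2 were undetected. The median SD was 0.11 for the detected cycle enzymes, below the 0.18 of all detected genes.

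Oxidase and peroxide enzymes were detected for 15 of 24 genes measured (62.5%; median level 7.05). The peroxide-removing enzymes Gpx1 and Gpx4 read 13.68, 13.49 and 13.51, mean 13.56 ± 0.10 and 13.22, 13.03 and 13.09, mean 13.11 ± 0.10. Cyba, the p22 subunit of the phagocyte oxidase, read 12.62, 12.52 and 12.79, mean 12.64 ± 0.14, and its cytosolic subunits Ncf1 and Ncf4 were detected, while Cybb, the catalytic subunit, was undetected. Prdx1 was at 12.62 ± 0.09 on 1 of 2 probes, Sod1 at 12.28 ± 0.35 on 1 of 3, and Prdx2 at 11.32 ± 0.07. Nox1, Nox4, Nos1, Nos3 and Ido1 were undetected.

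Cell cycle genes were detected for 26 of 34 genes measured (76.5%), with a median level of 6.02. Cenpa, the centromeric histone, read 11.72, 11.53 and 11.94, mean 11.73 ± 0.20, and Cdkn1a, the inhibitor p21, read 11.70, 11.52 and 11.27, mean 11.50 ± 0.22. The range over the arrays was under 1 log2 unit for both. Ccnd3 was at 10.42 ± 0.12, Mcm4 at 9.77 ± 0.05, Cdk2 at 9.68 ± 0.28 and Mcm6 at 9.12 ± 0.10. The mitotic genes Ccna2, Ccnb2, Bub1 and Ube2c were undetected, whereas Cdk1, Plk1, Top2a and Aurka were detected.

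Markers of other cells that marrow cultures can hold were measured beside the basophil genes. The background share for their counts is the 41.4% of all genes that were detected. The 8 measured eosinophil genes held none that was detected: Siglecf, Ccr3, Epx, Prg3 and Adgre4 were undetected and the other 3 were in between. Of 13 lymphocyte and NK cell genes, Il7r alone was detected, and Cd3d, Cd3e, Cd8a, Cd79b, Ms4a1 and Ncr1 were undetected. Of 10 stromal genes Fn1 alone was detected, at 5.38, 7.47 and 5.42, on 1 of 4 probes, and Col1a1, Col3a1 and Dcn were undetected. A further 24 genes are known from other organs, of which 21 were undetected, among them Alb, Ins2 and Myh6. The 2 that were detected were Mbp at 9.24 ± 0.23 and Cela1 at 7.66 ± 0.17, each on 1 probe while the others of that gene were not detected on all 3 arrays.

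Mast cell genes were detected for 6 of 14 (42.9%), near the background share. Cpa3, Gata2 and Cd200r3, described above as common to basophils and mast cells, were counted with the basophil genes and not here. The difference in share between both lists therefore depends on how such genes were assigned. Besides Tpsb2 and Kit, Tpsab1 read 9.65, 8.81 and 10.11, mean 9.52 ± 0.66 and Cma1, mast cell chymase, read 9.05, 7.53 and 7.49, mean 8.02 ± 0.89. The arrays spread widely in both, Cma1 being high on array 1. Rab27b and Tph1 were also detected. Mcpt1, Mcpt2, Mcpt4, Mcpt9, Mrgprb1, Mitf and Gzmb were undetected, and Mrgprb2 was in between.

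Neutrophil and macrophage genes had 8 of 16 members detected each (50%), beside 41.4% of all genes. Ctsg, cathepsin G, read 11.89, 11.74 and 11.92, mean 11.85 ± 0.09, and S100a8 read 9.07, 11.36 and 10.91, mean 10.45 ± 1.21, lowest on array 1. Mpo and Ltf, granule proteins of neutrophils, had means of 5.57 ± 0.59 and 5.52 ± 0.61, and Mmp8 and Cd177 were undetected. Adgre1, the F4/80 antigen of macrophages and eosinophils, read 12.14, 12.35 and 12.10, mean 12.20 ± 0.13 and Lyz2 read 10.88, 11.97 and 10.69, mean 11.18 ± 0.69. Csf1r, the macrophage growth factor receptor, had a mean of 5.83 ± 0.32, while Mertk, Marco, Msr1 and Cx3cr1 were undetected. Of 14 dendritic cell genes 5 were detected: Cd74, H2-Ab1, H2-Aa and H2-Eb1, the invariant chain and chains of MHC class II, and Ccr7. Itgax, Flt3, Zbtb46, Xcr1 and Clec9a were undetected. Of 8 erythroid and megakaryocyte genes 5 were detected, Hba-a1, a globin, at 8.49 ± 0.41, and of 9 progenitor genes 5 were detected, Cd34 at 6.39 ± 0.41. How many such cells the cultures held was not tested. Ctsg, Lyz1, Lyz2, S100a8, Mpo and Ltf also stand on the granule lists.

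**Figure D3:**
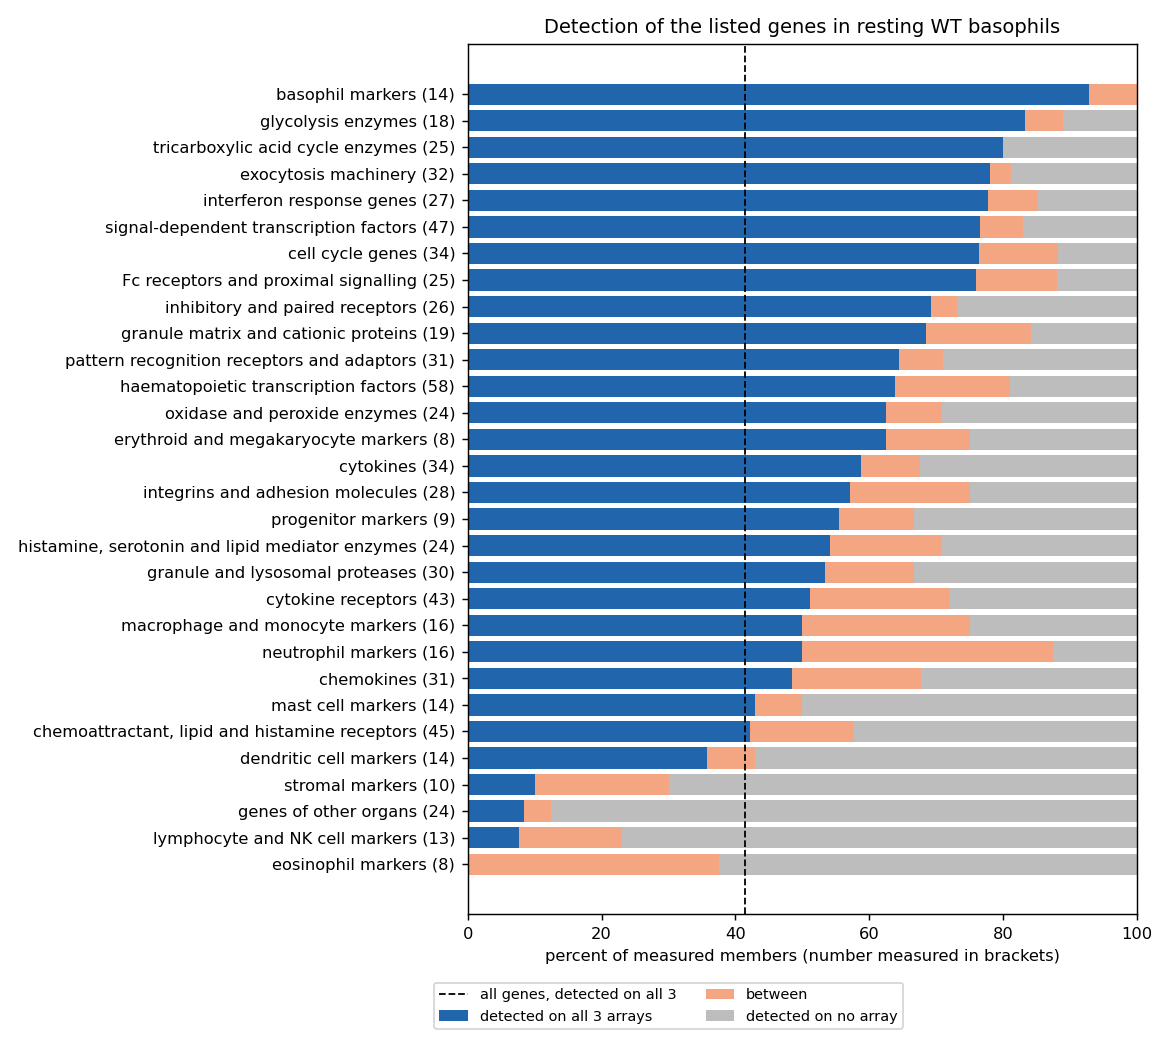
Percent of the measured members of each of 30 gene lists that were detected on all 3 resting WT arrays, on none, or between. The dashed line is the 41.4% of all genes; basophil markers reach 92.9%, eosinophil markers 0%, and chemoattractant receptors 42.2%.

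Over all lists, 402 of 675 measured genes were detected and 194 were undetected, a share of 59.6% beside the 41.4% of all genes. A further 62 listed genes had no probe paired with that symbol alone in the annotation used and are not analysed here. Probes of one gene did not always give the same call. Of 4821 detected genes with more than 1 probe, 1558 had every probe detected on all 3 arrays and 3263 did not. Probe counts are given above for some genes only, so a level printed without one may rest on part of a gene's probes. Foxp3, the regulatory T cell factor, is a gene whose probes gave unlike calls, named after its values were seen. It read 9.92, 10.35 and 9.87, mean 10.05 ± 0.26 on 1 of its 4 probes, and the other 3 were undetected.

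Most detected genes differed little between the 3 arrays. Only 349 of 7896 (4.42%) had a range of at least 1 log2 unit, a 2-fold difference, between the lowest and highest array, and 143 had one without background correction. Of all detected genes, 2724 (34.5%) were highest on array 2, and of the 349, 160 (45.8%) were highest and 147 were lowest there. Between pairs of arrays, a range of at least 1 was found for 241 genes on arrays 1 and 2, 200 on arrays 2 and 3, and 75 on arrays 1 and 3, the pair without array 2. The largest range was that of Cxcl10, an interferon-induced chemokine, at 5.88, 10.64 and 7.41. Ccl7, a monocyte chemokine, read 5.63, 8.79 and 7.05, and Ch25h, cholesterol 25-hydroxylase, read 5.23, 8.26 and 5.60. All 3 were highest on array 2. Chil1 read 4.97, 7.84 and 5.84, Tnf 6.20, 8.68 and 6.84, Fpr2, a formyl peptide receptor, 6.14, 8.58 and 6.86 and Arg1, arginase, 8.06, 9.81 and 7.37, again highest on array 2. S100a9, at 8.07, 10.67 and 9.87, was also highest on array 2 and lowest on array 1. Going the other way, Tmem86a read 8.33, 5.74 and 7.71, lowest on array 2, and Erdr1 read 9.76, 8.87 and 11.42, highest on array 3.

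Interferon response genes differed between the resting arrays. Of 27 measured, 21 were detected (77.8%; median level 8.04), and 20 of the 21 were highest on array 2, beside 34.5% of all detected genes. Their mean level was 7.87 on array 1, 9.57 on array 2 and 8.34 on array 3, and their median SD was 0.93, beside 0.18 for all detected genes. Rsad2, the antiviral protein viperin, read 11.32, 13.52 and 12.22, Isg15, a ubiquitin-like modifier, read 9.60, 11.74 and 10.69, and Cmpk2 read 8.97, 11.76 and 9.76. In each of these the order was the same, with array 2 highest and array 1 lowest. Usp18, which removes ISG15, read 10.17, 12.54 and 11.05, Ifit3 7.15, 10.31 and 7.99 and Ifit2 6.27, 8.93 and 6.16. The exception was Ifi27l2a, at 9.09, 8.24 and 8.55, which was lowest on array 2. Ifit1, Ifih1, Oas1a and Xaf1 were undetected, and the interferon genes Ifng and Ifnb1 were too.

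Some markers of other cells were also high on array 2. The 8 detected macrophage and monocyte genes had a mean level of 8.56, 9.27 and 8.47 on arrays 1, 2 and 3, and 6 of them were highest on array 2. The 8 detected neutrophil genes had means of 7.78, 8.49 and 8.14, with 4 highest on array 2. The 13 detected basophil genes had means of 12.57, 12.69 and 12.54, with 8 highest on array 2. Of all detected genes, 34.5% were highest there. Csf1r read 5.63, 6.20 and 5.66. C1qa, C1qb, C1qc and Fcgr1, above background on 1 or 2 arrays, were highest on array 2, C1qb at 5.07, 5.75 and 4.70, while Mertk, Marco, Msr1 and Cx3cr1 were undetected. Some lists of other kinds also had high means on array 2. Of 20 detected cytokine genes 14 were highest on array 2, with means of 8.27, 8.79 and 8.38. The 13 detected granule matrix and cationic protein genes had means of 10.08, 10.76 and 10.36, with 7 highest on array 2. This list shares members such as Lyz1 and Ltf with the macrophage and neutrophil lists, so it is not separate from them. In some other lists array 2 was not the high one. The detected erythroid and megakaryocyte genes had means of 9.26, 8.42 and 8.41, with 0 of 5 highest on array 2. Mast cell genes had means of 8.61, 8.35 and 8.27, progenitor genes 7.30, 6.73 and 6.90, and dendritic cell genes 7.28, 7.16 and 6.76. The part of other cells in the difference of array 2 was not tested. Since the 3 arrays are 1 group, no test of array 2 against the others was made. The mean of every gene that differed on array 2, the interferon response genes among them, holds these differences.

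**Figure D4:**
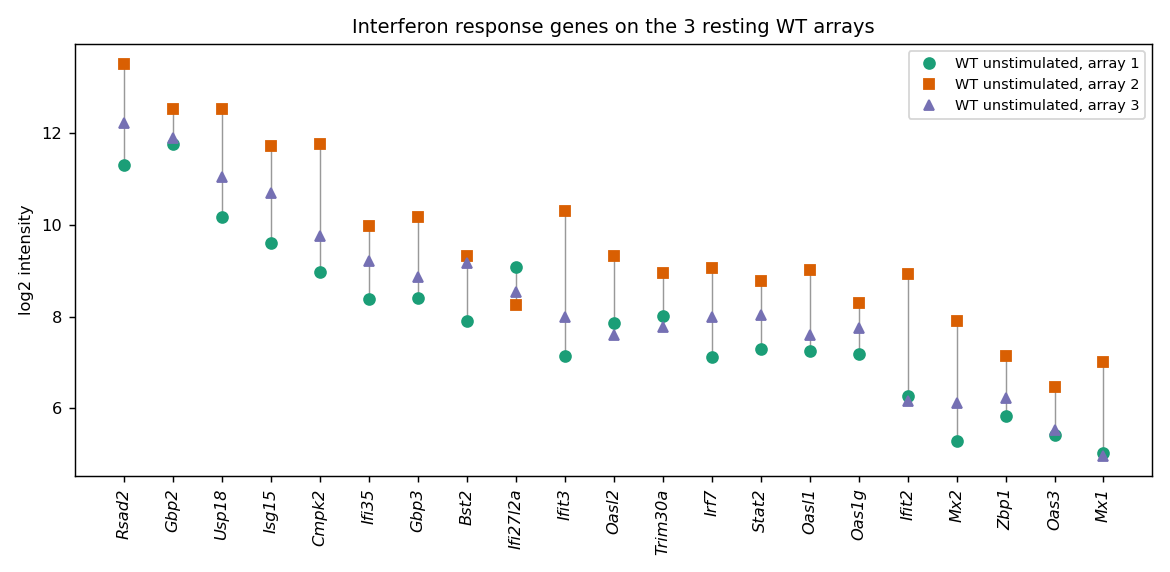
Levels (log2 intensity) of the 21 detected interferon response genes on each of the 3 resting WT arrays, with a line from the lowest to the highest array. Array 2 (squares) is the highest in 20 of 21 genes, and the exception is Ifi27l2a.

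Promoter composition was set beside the levels for the 15237 measured genes with an entry in the RefSeq table. The 7297 undetected genes had a median of 5 CG pairs in the 250 bases before the start, and 52.1% had at most 5. The 6494 detected genes had a median of 16, and 12.9% had at most 5. Within the detected genes the share with at most 5 stayed between 10.7% and 17.4% in each level group. Among the 100 genes with the highest means, the 30 ribosomal ones with an entry had a median of 18 and 0% with at most 5, while the 49 others had a median of 8 and 36.7% with at most 5.

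The basophil genes lay at the CG-poor end although they were detected. Of 12 with an entry, 75% had at most 5 CG pairs, with Il3ra at 27, Gata2 at 22 and Cd9 at 16 as exceptions, and the median was 2.5. A GATA motif stood in 8 of the 12 windows (66.7%), beside 23.1% of all measured genes, 17.4% of detected genes and 28.8% of undetected genes. TATAAA stood in 32.7% of the 49 high non-ribosomal genes, 6.67% of the 30 ribosomal genes and 6.53% of all detected genes. These shares describe sequence in a reference genome. The 12 genes were chosen for their known role in basophils, with earlier results of these data known, and no test was made.

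**Figure D5:**
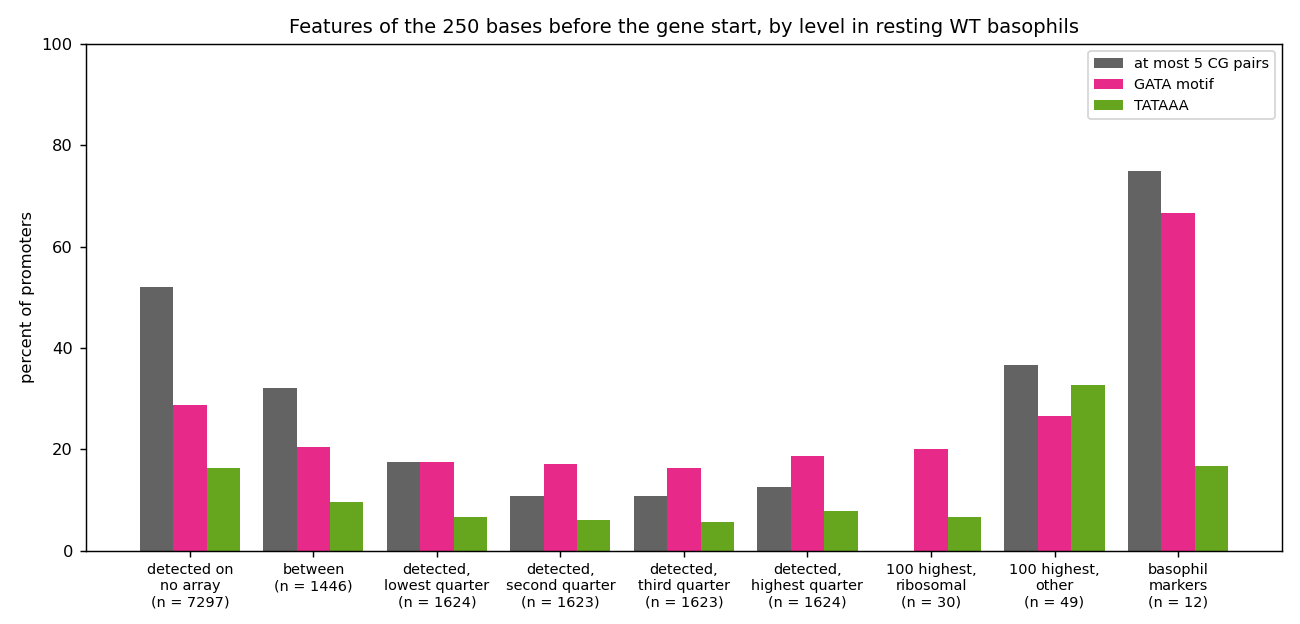
Percent of promoter windows (250 bases before the gene start) with at most 5 CG pairs, with a GATA motif and with TATAAA, for genes grouped by detection and level in resting WT basophils. Undetected genes have at most 5 CG pairs in 52.1% of windows, detected genes in 10.7% to 17.4%, and the 12 basophil markers in 75%, with a GATA motif in 66.7%.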

How the data were processed

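Total RNA, purified on columns and biotin-labelled per the labels, was hybridised to Illumina bead arrays. The authors deposited one linear intensity for each probe on each array, which the values show was neither background-subtracted nor normalized. Per the file headers a detection p-value accompanies each signal, in steps of 1 in 936. The authors' deposited processed values are on a log2 scale and served as an alternative; how they corrected background is not given here.

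Signals of all 18 arrays were background-corrected and quantile-normalized in limma 3.58.1 (R 4.3.3) with neqc, using the detection p-values to estimate background and an offset of 16. The offset compresses differences between dim probes. Probes were named through the platform annotation: 34885 had 1 gene symbol, 18 several and 10378 none, and only the first kind was used. A RefSeq gene table held the Entrez identifier of 34807 and changed 0 symbols. The probe with the highest mean over the 3 arrays stood for its gene. Lists were counted with Python 3.11.15 and pandas 2.3.3. The computation was tested on simulated data. With 1 group of 3 arrays no test was made. Promoters came from RefSeq on GRCm38.p6 and were matched by symbol, and the array files name no genome build.

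Genes eligible to be named with values were the 30 highest, the 15 largest ranges, the 6 highest detected members of each list and Mcpt8, Fcer1a, Ms4a2, Gata2, Il4, Il13, Il6, Kit, Prss34, Cpa3, Hdc, Fcer1g, Il3ra and Csf2rb, and the text takes from these; up to 8 undetected members per list, and others, are named by detection alone. The values of Foxp3 and C1qb were added after they were seen. Those of Csf1r, Mpo, Ltf and Ifi27l2a are also given although this rule does not make them eligible. Members, lists and this rule were chosen with earlier results of these data known. Alternatives changed the detection threshold, the arrays required, the probe rule, the background correction, the normalization and the arrays used.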

Additional observations from a re-analysis of the deposited data

Results flagged for a closer look

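Probes without a single gene symbol were used in no count of genes. Of 10396 such probes, 1812 (17.4%) were detected on all 3 resting WT arrays. The highest had a mean level of 14.70, and 3 lay above the brightest named gene. They are unnamed here, which does not mean that they lack a gene.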

How the results depend on the processing

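The count of 7896 detected genes was 7068 at a detection p-value under 0.01, 8618 when detection on at least 2 of 3 arrays was enough, between 8035 and 8210 when 1 array was left out, and 4633 when every probe of a gene had to be detected. The last rule cannot raise a count, and it lowered the detected members to 3 for mast cell markers, 4 for macrophage and monocyte markers, 0 for lymphocyte, stromal and other-organ genes, 3 for progenitor markers, 12 for Fc receptors, 13 for cytokine receptors, 8 for granule matrix, 15 for exocytosis, 9 for glycolysis, 10 for the tricarboxylic acid cycle, 13 for cytokines and 14 for cell cycle genes. These are the lists that fell by the largest shares, beside 4633 of 7896 genes left over all genes. Most other lists fell too, such as haematopoietic transcription factors from 37 to 26 and interferon response genes from 21 to 15. Basophil markers stayed at 13. With 2 of 3 arrays enough, eosinophil markers had 1 detected and lymphocyte markers 2. Leaving out 1 array gave 0 to 1 for eosinophil markers, the 1 arising without replicate 3, and 1 to 2 for lymphocyte markers, the 2 arising without replicate 2. The 349 genes with a range of at least 1 were 143 without background correction, 79 of them highest on array 2; the cause was not tested. Leaving out 1 array, an alternative chosen after seeing the data, gave 75 to 241, the 75 without replicate 2 and 200 without replicate 1, and fewer arrays alone narrow a range. The 100 highest genes shared 76 with those ranked by the mean of detected probes and 95 to 100 under the other alternatives. Of 1850 recomputed ranks of 185 named genes, 135 moved by more than the spread between arrays, 119 of them under the mean of detected probes. No paired analysis was possible because the values come from 1 group and no test. Signal over background limits what can be called detected: a gene on no array may be expressed below it or missed by its probe.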
